A study of Mus musculus with 2 samples.

Results

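F-box proteins and the cullin ubiquitin ligases they belong to were compared between epithelium of fetal mouse lung kept with and without CHIR99021, an inhibitor of glycogen synthase kinase 3. The genes were chosen by their annotated symbols and not on their signals, but the set was proposed with results of these arrays known. It holds the numbered Fbxo, Fbxl and Fbxw genes, Btrc, Skp1, Skp2, the cullins, Rbx1, Cand1 and Cand2. This gave 80 genes of 18193 with a probe set naming 1 gene, and 151 of 34945 such probe sets. The epithelium came from ICR embryos at embryonic day 11 and was freed from the other lung tissue. It was embedded in Matrigel, a basement membrane gel, and grown for 4 days with FGF10, a growth factor of lung budding, and CHIR99021. Pieces of it were then put into fresh gel for a further 2 days, all with FGF10 and either with CHIR99021 (labelled CHIR+) or without (CHIR-). Cells of both groups had thus met the inhibitor, and what differed was whether it was kept or taken away. There were 2 Affymetrix arrays, 1 per condition, so no value has an error between cultures and no test was possible. Nothing in the labels says how many embryos each culture came from.

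A cullin ligase attaches ubiquitin to chosen proteins, most of which are then destroyed by the proteasome. In the SCF form, the scaffold Cul1 holds the RING protein Rbx1 at one end and the adaptor Skp1 at the other, and Skp1 holds an interchangeable F-box protein that recognises the substrate. Glycogen synthase kinase 3 phosphorylates beta-catenin, which allows the F-box proteins Btrc and Fbxw11 to bind it, so these receptors act in the step that the inhibitor blocks from above. Wnt and beta-catenin signalling maintains the distal tip of the branching lung epithelium.

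Signals are MAS5 intensities as deposited by the authors. A probe set counted as above background when its signal exceeded a floor, which was 19.2 on the array without CHIR99021 and 12.7 on the array with it. These floors are the 95th percentile of 80 probe sets for odorant and vomeronasal receptor genes. Ratios are given as log2 of the signal with CHIR99021 divided by that without, after values below a floor were raised to it. A gene was called higher or lower at 2-fold, and the probe set whose mean log2 signal was highest stood for its gene. Probe sets differ in their response, so signals of different genes do not rank their expression. They were ranked once, to pick the brightest probe set of each role for naming.

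The arrays differed as a whole. Of 11356 genes above both floors, 76.4% had a lower signal with CHIR99021, and their median log2 ratio was -0.40. The ratio of 3' to 5' signal was 1.29 without and 3.18 with CHIR99021 for Actb, and 0.737 and 1.62 for Gapdh. Its part in the results below was not tested. All 7 genes chosen to check the conditions were at least 2-fold higher with CHIR99021, among them Axin2, a feedback inhibitor of the Wnt pathway, with signals of 58.2 without and 267 with it. All 12 lung epithelium markers were measured, with a median log2 ratio of -0.67, beside -0.42 for all measured genes. Of these markers 1 was higher and 5 lower, or 8.33% and 41.7%, beside 1.90% and 18.4% of all genes. After loess, a scaling described below, 1 marker was higher and 5 lower, beside 6.03% and 7.29% of all genes. Sox9, a factor of the distal tip, was 11.0-fold higher, and Sftpc, Epcam and Etv5 had log2 ratios of -0.051, -0.039 and 0.074. Cldn18 had 4360 without and 1087 with CHIR99021, Shh 5662 and 2557, Krt8 7715 and 3151, and Krt18 6738 and 2834. These and Nkx2-1 were the 5 lower markers. Cdh1 had 6414 and 3574, within 2-fold. Nkx2-1, the lung identity factor, was below the floor with CHIR99021 (52.0 without), by its only probe set. Of 12 mesenchyme markers 6 were measured. The summed signal of all 12, including those below the floors, was 419 without and 374 with CHIR99021. Tcf21 had 24.1 and 13.2, Col1a1 24.7 and 35.8, Col3a1 88.7 and 54.6, and Acta2 199 and 194. Tbx5 and Foxf1 were above the floor only with CHIR99021, at 20.8 and 14.9. Without it they had 9.35 and 18.0, so the signal of Foxf1 was not higher with CHIR99021. Tbx4, Pdgfra, Pdgfrb, Wnt2, Fgf10 and Twist1 were below the floor on both arrays. Of 6 endothelial markers 2 were measured, as were 2 of 6 blood cell markers and 2 of 4 neural ones. Sums over all listed genes of a kind, measured or not, were 104 without and 65.9 with CHIR99021 for endothelium. They were 142 and 76.4 for blood cells, and 50.9 and 39.95 for neural markers. Kdr had 32.0 and 23.5, Cldn5 39.0 and 20.2, Lyz2 74.9 and 35.0, and Cd68 28.1 and 19.4, while Pecam1, Cdh5, Tek, Emcn, Ptprc, Tubb3 and Sox10 were below the floor on both arrays. The part of these other cell types in the results was not tested. Of 4 mesothelium markers 2 were measured, and Wt1 and Upk3b were below both floors. Msln had 471 without and 4.84, under the floor, with CHIR99021. Lrrn4 was above the floor only with CHIR99021, at 14.8, and had 6.36 without it, so these 2 signals went in opposite directions.

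Most of the measured ligase genes, 53 of 67, were within 2-fold. Of the 80 genes, 67 were measured, which means above the floor on at least 1 array: 61 on both arrays, 4 only without CHIR99021 and 2 only with it. The other 13 were below both floors. On the authors' scale 2 of the 67 were higher and 12 lower with CHIR99021. Over all 12917 measured genes, 1.90% were higher and 18.4% lower, so 12 of 67, or 17.9%, is near the background. After loess, which removes the shift along the range of signal, 2 members were higher and 2 lower, beside 6.03% and 7.29% of all genes. After median centring 5 were higher and 1 lower, beside 8.59% and 5.91%. The 61 members above both floors had a median log2 ratio of -0.47, beside -0.40 for all genes, and 51 of them had a lower signal with CHIR99021. Over all 67 the median was -0.56, which is the value of Fbxl2, a gene above the floor only with CHIR99021 whose ratio was set by the floor. Skp2 and Cand2 were higher, and Fbxo15 lower, under these 3 scales. Small differences turned with the scale: after loess 29 of the 61 were above 0, beside 10 before it, so the sign of a ratio near 0 depends on the scaling.

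**Figure D1:**
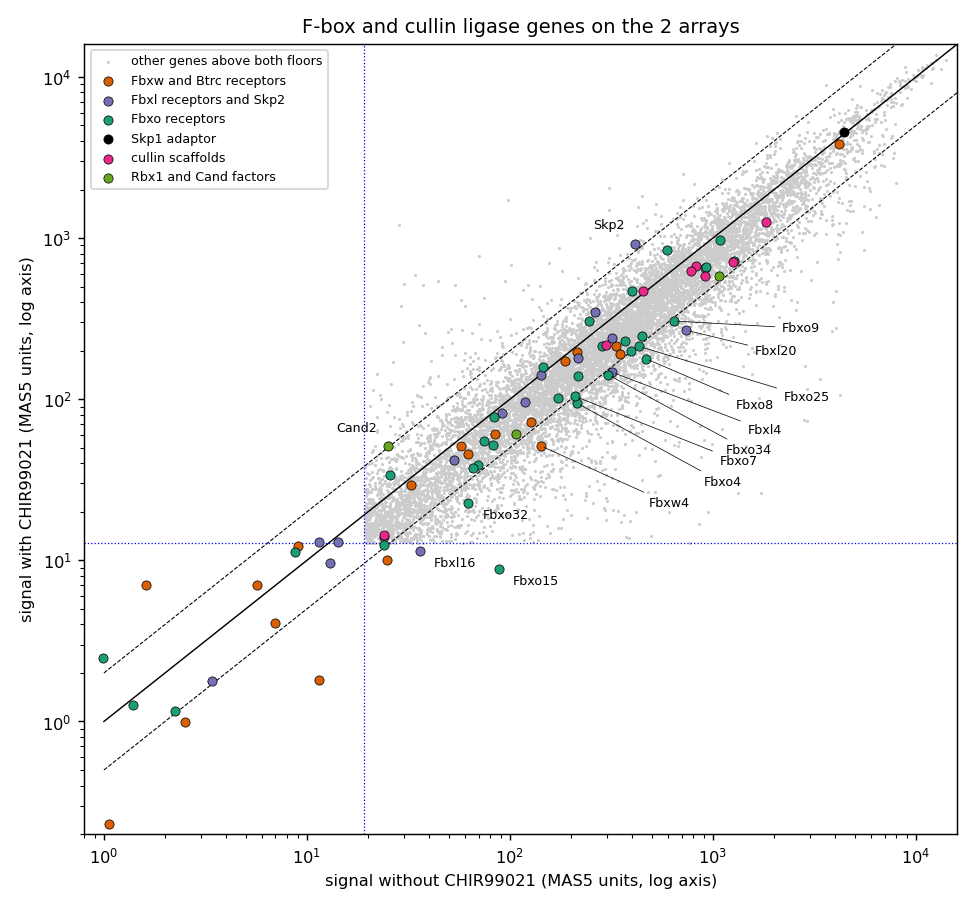
Signal of each of the 80 F-box and cullin ligase genes without (x axis) and with CHIR99021 (y axis), in MAS5 units on log axes, coloured by role, over all other genes above both floors in grey; solid line, equal signal; dashed lines, 2-fold; dotted lines, the floors of 19.2 and 12.7. The named genes are the 14 called at 2-fold, 2 above and 12 below the line of equal signal.

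Of the 12 genes for Skp1, the cullins, Rbx1 and the Cand factors, 11 were within 2-fold by the probe set that stood for each. The exception was Cand2, and 10292 of all 12917 measured genes were within 2-fold as well. Skp1, the adaptor that carries every F-box protein, had signals of 4431 without and 4577 with CHIR99021. Its other probe set had 2929 and 3021. Both sets were slightly higher with the inhibitor, which made Skp1 the only member with 2 or more probe sets above both floors whose sets all lay above 0 on the authors' scale.

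All 8 cullins with a probe set were above both floors. Of these 0 were called in either direction, beside 1.90% higher and 18.4% lower of all genes. Their log2 ratios ran from -0.81 to 0.056, with a median of -0.50 on the authors' scale and -0.071 after loess. Cul1, the SCF scaffold, was at the low end of the cullins, with 1252 without and 713 with CHIR99021. Cul7, which assembles with Fbxw8, was at the high end, with 453 and 471. The cullins that carry other kinds of receptor lay between them. Cul3, the scaffold for BTB proteins, had 1826 and 1256, and its 5 probe sets had log2 ratios from -1.64 to -0.28. Cul2, which works through elongins and Vhl, had 914 without and 583 with CHIR99021. Cul5, its relative for SOCS-box proteins, had 298 and 215, while another of its probe sets had 112 and 114. The near relatives Cul4a and Cul4b, which hold Ddb1, differed little from each other in ratio: the former had 827 without and 675 with CHIR99021, at a log2 ratio of -0.29, and the latter 779 and 620, at -0.33. Cul9, a large cullin that binds p53, was close to the floor, with 24.1 and 14.3.

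Rbx1, the RING protein that brings the charged ubiquitin-conjugating enzyme, had 107 without and 61.2 with CHIR99021 by its only probe set naming 1 gene. The brightest set that also names its pseudogene copy had 3136 and 2944. Such sets above both floors had log2 ratios of -0.09, -0.12, -0.58 and 0.43. Cand1, which removes old F-box proteins from Cul1 so that new ones can join, had 1067 and 578, and all 4 of its probe sets were lower with CHIR99021, at log2 ratios from -1.94 to -0.15. Cand2, the relative of Cand1, went the other way on 1 of its probe sets. That set had 25.0 without and 50.9 with CHIR99021, 2.04-fold higher, and the other had 26.2 and 17.5. The call on Cand2 thus rests on 1 dim probe set that the other did not share.

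Receptors of the WD40 class, which read phosphorylated degrons, had lower or nearly equal signals. Of 19 genes 12 were measured, with a median log2 ratio of -0.46 on the authors' scale and 0.051 after loess. Of the 12, 0 were higher and 1, or 8.33%, was lower, beside 1.90% and 18.4% of all genes. Fbxw11, which recognises beta-catenin phosphorylated by glycogen synthase kinase 3, had 4167 without and 3842 with CHIR99021, a log2 ratio of -0.12 that loess brought to near 0. That probe set carries the suffix for possible cross-hybridisation. Its other sets had 1132 and 794, 105 and 117, and 42.3 and 34.8. A last set had 42.7 without CHIR99021 and was under the floor when it was present, at least 3.36-fold lower. Btrc, the other receptor for beta-catenin, was near the floor on most of its probe sets. The main set had 57.2 and 51.0, the next 28.7 and 25.2. A further one was above the floor only without CHIR99021, at 26.3, and another only with it, at 15.8. The main sets of both beta-catenin receptors were thus within 2-fold.

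Fbxw7, which targets Myc, cyclin E and Notch after phosphorylation by the same kinase, had 188 without and 172 with CHIR99021, and its other probe set 208 and 137. Fbxw8, the partner of Cul7, had 349 and 190, a log2 ratio of -0.88, and a further set gave -0.88 as well. Fbxw4, which is linked to the limb defect of dactylaplasia mice, was the lower one of this class. It had 142 without and 51.3 with CHIR99021, 2.76-fold lower, by its only probe set. After loess its log2 ratio was -0.90, short of 2-fold. Fbxw2 showed how far probe sets of a gene can part: of its 6 sets above both floors, log2 ratios ran from -1.98 to 0.17.

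The leucine-rich repeat receptors had the widest range of ratios of the 6 roles among genes above both floors, from -1.46 to 1.16. Of 17 genes 15 were measured, and the median log2 ratio was -0.42, or 0.055 after loess. Of the 15, 1 was higher and 3 lower, or 6.67% and 20%, beside 1.90% and 18.4% of all genes. Skp2, which marks the cell cycle inhibitor p27 for destruction and so helps cells enter S phase, was the higher one. Its main probe set had 414 without and 924 with CHIR99021, 2.23-fold higher. Of its 5 probe sets above both floors 4 were higher and 1 was lower. The other higher sets had 212 and 456, 325 and 494, and 548 and 639. The lower one had 89.4 and 80.2. A last set had 82.4 without CHIR99021 and was under the floor in its presence, at least 6.48-fold lower. The 4 sets with the most signal therefore shared the direction, and the 2 dim ones did not. Among genes above both floors the main set was at percentile 98.7 of log2 ratios.

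Fbxl20, a receptor known for its role at the synapse, was lower on all 4 of its probe sets. They had 738 without and 268 with CHIR99021, 479 and 149, 199 and 82.6, and 45.3 and 25.7. The main set was 2.76-fold lower and the next 3.22-fold. Its main set was past 2-fold after loess, at -1.04, but not after median centring, at -0.84, or quantile normalization, at -0.98. Fbxl4, a mitochondrial protein whose loss depletes mitochondrial DNA in patients, had 318 and 147, 2.17-fold lower by its only probe set. Fbxl16 had 35.9 without CHIR99021 and was under the floor in its presence, so that it was lower by at least 2.82-fold. Neither Fbxl4 nor Fbxl16 was past 2-fold after loess, median centring or quantile normalization, with loess values of -0.61 and -0.91. Fbxl5, the iron sensor that controls Ireb2, had 912 and 650. Fbxl14, which targets Snail proteins, had 263 without and 345 with CHIR99021, a log2 ratio of 0.39 and the second positive one of this class.

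**Figure D2:**
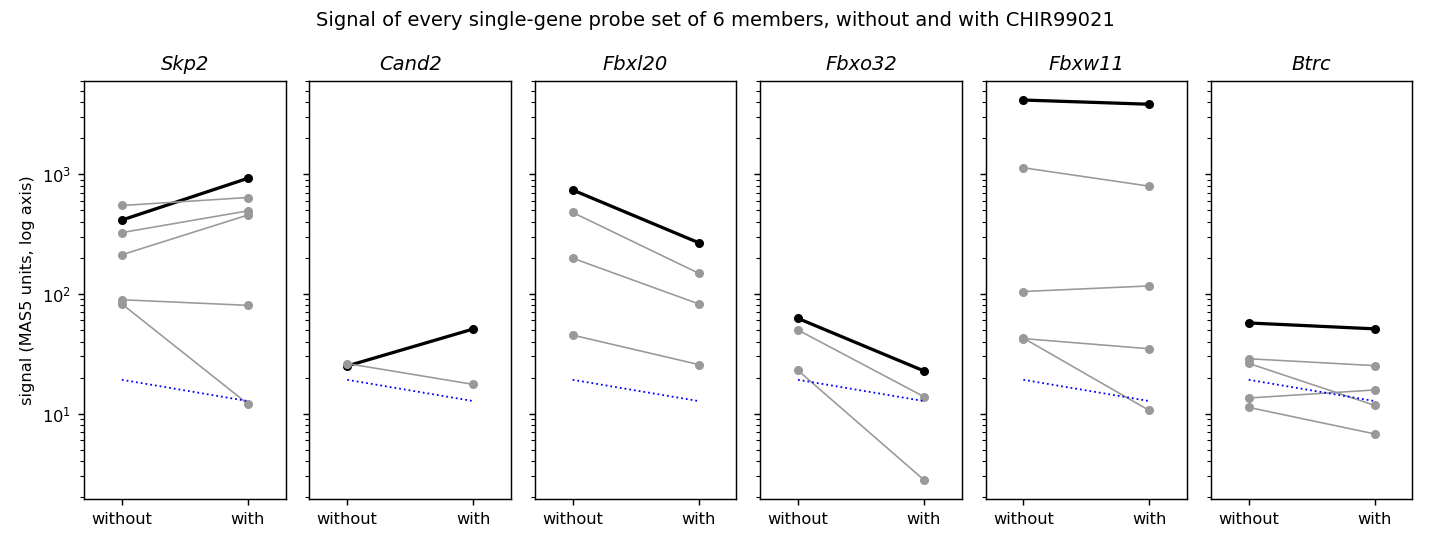
Signal (MAS5 units, log axis) of every probe set naming only Skp2, Cand2, Fbxl20, Fbxo32, Fbxw11 or Btrc, without and with CHIR99021; black, the set that reads the gene; grey, its other sets; dotted, the floors. The 4 sets of Fbxl20 and the 3 of Fbxo32 all slope down, the 4 sets of Skp2 with the most signal slope up, and those of Cand2 cross.

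Upstream sequence was read for Skp2 and Fbxl20, members called higher and lower, and for Fbxo5, the Fbxo gene with the highest ratio. The windows are the 250 bases before the annotated start from RefSeq (GRCm38.p6), which held 60 of the 80 genes. Skp2 has 2 annotated starts. Capitals mark CCAAT boxes on either strand (CCAAT or ATTGG), an element of many cell cycle promoters, searched for after these sequences had been seen.
Skp2, chr15:9140455-9140704, minus strand: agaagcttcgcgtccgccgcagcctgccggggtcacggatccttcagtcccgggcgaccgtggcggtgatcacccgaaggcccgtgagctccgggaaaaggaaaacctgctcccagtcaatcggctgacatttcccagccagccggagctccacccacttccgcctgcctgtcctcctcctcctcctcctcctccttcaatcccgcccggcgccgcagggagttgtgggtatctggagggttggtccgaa
Skp2, chr15:9155426-9155675, minus strand: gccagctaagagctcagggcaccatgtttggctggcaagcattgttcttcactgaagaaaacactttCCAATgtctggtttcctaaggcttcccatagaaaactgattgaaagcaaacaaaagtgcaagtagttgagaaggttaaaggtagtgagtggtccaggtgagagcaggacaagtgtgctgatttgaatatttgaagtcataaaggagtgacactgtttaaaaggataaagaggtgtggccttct
Fbxo5, chr10:5805466-5805715, minus strand: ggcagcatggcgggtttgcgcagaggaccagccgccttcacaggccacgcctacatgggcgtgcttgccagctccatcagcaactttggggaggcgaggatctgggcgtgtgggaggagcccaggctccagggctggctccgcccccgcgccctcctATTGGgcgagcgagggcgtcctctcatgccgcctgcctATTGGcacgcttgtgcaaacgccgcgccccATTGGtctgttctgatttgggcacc
Fbxl20, chr11:98149617-98149866, minus strand: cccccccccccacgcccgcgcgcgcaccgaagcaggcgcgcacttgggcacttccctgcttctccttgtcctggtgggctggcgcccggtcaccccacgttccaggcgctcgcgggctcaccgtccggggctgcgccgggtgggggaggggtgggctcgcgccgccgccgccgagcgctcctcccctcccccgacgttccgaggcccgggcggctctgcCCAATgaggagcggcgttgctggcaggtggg
Fbxo5 held 3 CCAAT boxes, at 93, 55 and 25 bases before its start counted to the far end of each, and 2.79% of all 32851 windows held 3 or more. The Fbxl20 window held 1, as did the Skp2 window at the higher coordinates, and 33.8% of all windows held at least 1. Of the 82 windows of member genes, 22.0% held at least 1 CCAAT box and 1.22% held 3 or more, both below the shares of all windows. The Skp2 windows differed in base composition, with 65.6% G and C and 21 CpG in the one at the lower coordinates, and 42.8% and 0 in the other. None of these 4 windows held CTTTGAT or CTTTGAA, letters of the TCF motif, or TTTCCCGC, TTTGGCGC, TTTGCCGC or TTTCGCGC, letters of the E2F motif, on either strand. Of all windows 7.48% held the former and 1.86% the latter. Over all 82 windows of member genes the shares were 3.66% and 1.22%. A match or its absence describes these letters in these windows.

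The Fbxo genes, a mixed class with various substrate-binding domains, held 8 of the 12 lower members. Of 32 genes 28 were measured, 0 were higher and 8 lower, that is 28.6% beside 18.4% of all genes. Their median log2 ratio was -0.79, beside -0.42 for all measured genes, and -0.23 beside 0.044 after loess. With loess 1, or 3.57%, was lower and 0 higher, beside 7.29% and 6.03% of all genes. These counts describe 2 arrays and were not tested.

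Fbxo15, a gene known as a marker of pluripotent stem cells, had 88.0 without CHIR99021 and 8.85, under the floor, in its presence. It was at least 6.92-fold lower by its only probe set. It was the one member lower under each of the scalings and floors tried. Fbxo32, the muscle atrophy receptor induced by FoxO factors, had 62.4 without and 22.7 with CHIR99021, 2.75-fold lower. Its other probe sets had 49.9 and 13.9, and 23.0 with the last below the floor. All of its 3 sets were lower with the inhibitor. The main set was short of 2-fold after loess, at -0.86, median centring, at -0.83, and quantile normalization, at -0.76. Fbxo8, which carries a Sec7 domain, had 465 and 179, 2.60-fold lower. Fbxo9 had 641 and 306, 2.10-fold lower, and its second set 181 and 51.7. Fbxo4 had 214 and 94.4, 2.27-fold lower, and Fbxo34 had 305 and 141, 2.16-fold lower. The main sets of these 4 genes were at least 2-fold lower on the authors' scale and short of it after loess. Their log2 ratios after loess were from -0.91 to -0.61. The second set of Fbxo9 stayed past 2-fold after loess, at -1.25.

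Near the threshold, Fbxo25, the closest relative of Fbxo32, had 433 without and 212 with CHIR99021, at a log2 ratio of -1.03. Fbxo7, a receptor mutated in a form of parkinsonism, had 209 and 104, at -1.01. Just outside, Fbxo28 had 396 and 200, at -0.98, but another of its probe sets had 184 and 241. Calls this close to 2-fold turn on small differences in signal.

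Of the Fbxo genes above both floors, 5 had higher signals with CHIR99021 on the authors' scale. Fbxo5, also called Emi1, which restrains the anaphase-promoting complex until mitosis, had 595 without and 840 with CHIR99021 by its only probe set, a log2 ratio of 0.50, or 0.86 after loess. It was at percentile 93.7 of genes above both floors. Fbxo27, a receptor for glycoproteins, was near the floor at 25.7 and 33.8. Fbxo45, which works with Mycbp2, had 400 and 466, Fbxo21 had 244 and 307, and Fbxo10 had 145 and 159. The second probe sets of Fbxo45 and Fbxo21 went the other way, at log2 ratios of -0.48 and -0.55. Fbxo22 had 1080 without and 978 with CHIR99021, and its next set 276 and 119. Fbxo11, which targets Bcl6, had 1275 and 723.

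**Figure D3:**
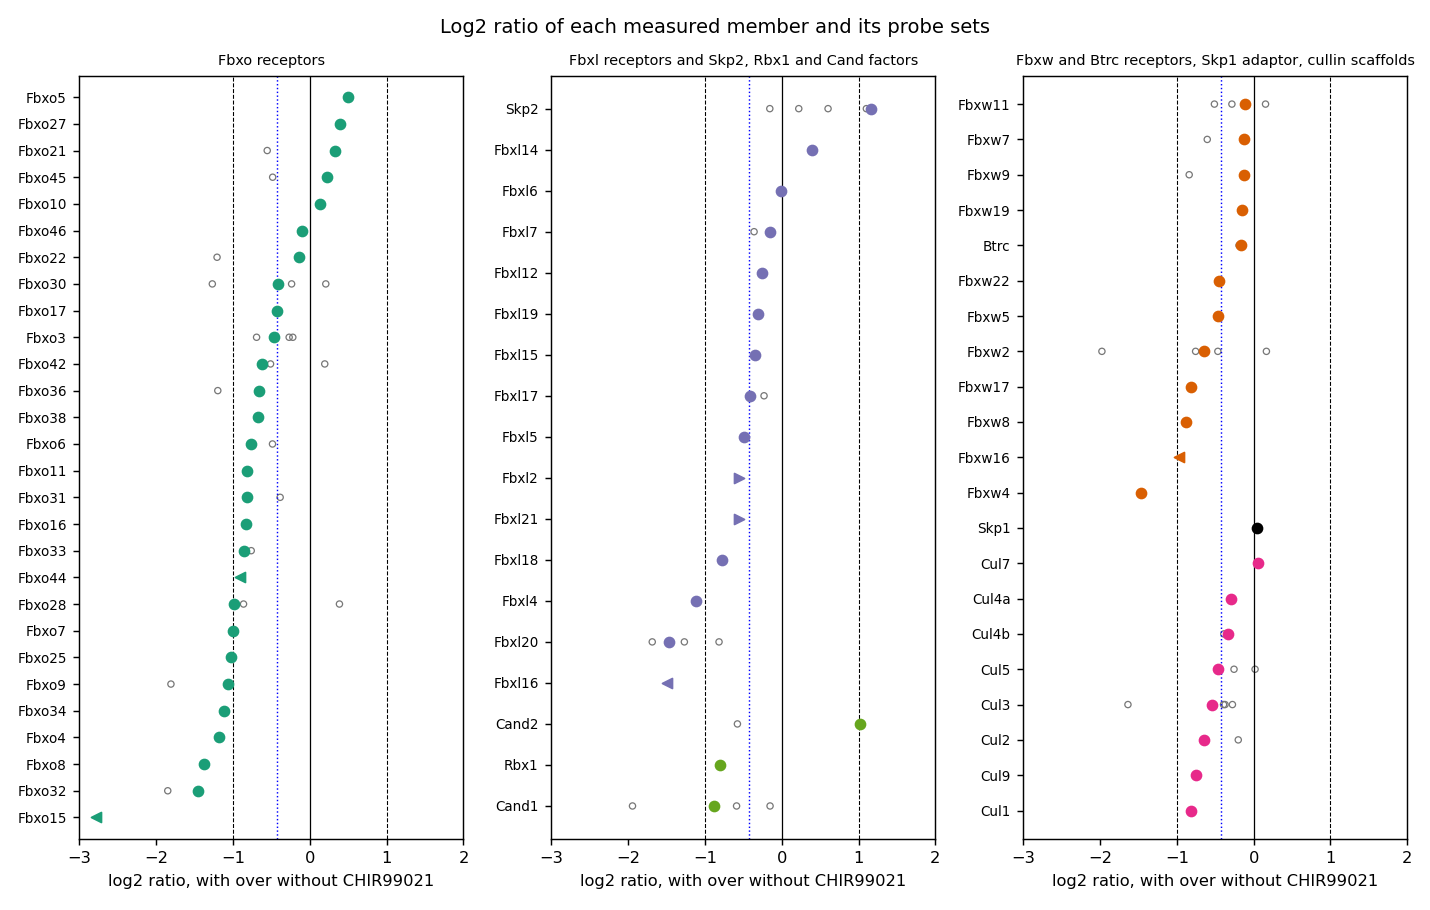
Log2 ratio, with over without CHIR99021, of the 67 measured genes by role; filled circles, the probe set that reads the gene; open circles, its other sets above both floors; triangles, bounds for genes above the floor on 1 array, pointing the way the true ratio may lie; dashed lines, 2-fold; dotted line, the median of all measured genes at -0.42. The Fbxo genes reach from a bound of -2.79 to 0.50, and the cullins stay between -0.81 and 0.056.

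Probe sets of the same gene measured how far a single ratio can be read. For 30 members with 2 or more sets above both floors, the SD of log2 ratios within a gene was 0.51, beside 0.56 for 5335 genes on the array. This is a spread between probes and not between cultures. In 19 of the 30 every such set was below 0, in 1 every set was above 0 and in 10 the signs were mixed. The mixed ones were Cand2, Cul5, Fbxo21, Fbxo28, Fbxo30, Fbxo42, Fbxo45, Fbxw11, Fbxw2 and Skp2. A further 31 members rested on 1 set above both floors.

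Genes of the steps around the ligases were read from lists chosen for their function, with results on these arrays known. Of 21 genes of cullin activation, which attach or remove the ubiquitin-like Nedd8, all were measured, with a median log2 ratio of -0.22. Of these 0 were higher and 1, or 4.76%, was lower, beside 1.90% and 18.4% of all genes. The lower one was Dcun1d4, which helps load Nedd8 onto cullins, with 251 without and 123 with CHIR99021. Cops4, a subunit of the COP9 signalosome that strips Nedd8 off, had 715 and 464. Ube2f, a Nedd8-conjugating enzyme, had 390 and 265, and Dcun1d2 had 236 and 162. Nedd8 itself, named after its value was seen, had 2307 and 2757.

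Receptors and adaptors of the other cullins bring in substrates for ligases that do not use F-box proteins. Of 76 genes 73 were measured, with 1 higher and 10 lower. The latter are 13.7% beside 18.4% of all genes, and the median of -0.39 lies beside -0.42, so the list is near the background. Enc1, a BTB-Kelch protein, was the higher one, with 424 without and 1189 with CHIR99021, 2.81-fold. Kctd10, a BTB adaptor of Cul3, had 858 and 282, 3.04-fold lower. Klhl24, another Kelch protein, had 1023 and 383, 2.67-fold lower, and Crbn, the Cul4 receptor bound by thalidomide, had 878 and 334, 2.63-fold lower.

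The supply of ubiquitin and the proteasome had mostly small differences. Of 12 ubiquitin-activating, conjugating and partner genes 11 were measured, with a median of -0.33. None was called in either direction, beside 1.90% higher and 18.4% lower of all genes. The one with the largest change was Ube2g2, with 330 without and 212 with CHIR99021, followed by Arih2 and Ube2g1, with log2 ratios of -0.40 and -0.39, and Arih1, a ligase that works with neddylated cullins, with -0.38. Cks1b, the cofactor of Skp2 for p27 and chosen after its value was seen, had 4875 and 5669. Of 31 proteasome subunits 0 were higher and 3, or 9.68%, were lower, beside 1.90% and 18.4% of all genes. Their median was -0.25. Psmd4, a ubiquitin receptor, had 1097 and 467, 2.35-fold lower, Psmc5, an ATPase, 964 and 412, 2.34-fold lower, and Psmd2 had 1566 and 738, 2.12-fold lower. Psma7, a core subunit, had 1780 and 947. After loess 0 of the 31 were called in either direction, beside 6.03% higher and 7.29% lower of all genes. Among F-box and related genes that the symbols leave out, 8 of 9 were measured. Of the 8, 0 were called in either direction, beside 1.90% higher and 18.4% lower of all genes. Their median was -0.51, beside -0.42 for all measured genes. Lmo7 had 4546 without and 2379 with CHIR99021, Kdm2a, a histone demethylase with an F-box, 308 and 175, Tbl1xr1 573 and 367, and Tbl1x 1784 and 1206.

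Transcripts of known SCF substrates, whose proteins the ligases control after translation, went in both directions. Of 44 genes 42 were measured, 2 were higher and 7 lower, or 4.76% and 16.7% beside 1.90% and 18.4% of all genes, with a median of -0.33. Myc, a target of Fbxw7 and Skp2, had 263 without and 41.5 with CHIR99021, 6.32-fold lower. Nfe2l2, a target of Btrc as well as of Cul3 with Keap1, had 4755 and 1605, 2.96-fold lower. Cdkn1c, a cell cycle inhibitor that Skp2 recognises, had 3363 and 1324, 2.54-fold lower, and Gli3, which Btrc processes, had 61.3 and 157, 2.56-fold higher. Ctnnb1, beta-catenin, had 8552 and 6810, and Cdkn1b, which encodes p27, had 417 and 239. Cdkn1a, which encodes p21 and is also recognised by Skp2, was the other higher gene, with 838 and 1771, 2.11-fold. Ctnnb1 and Cdkn1b were within 2-fold, and these 3 were named after their values were seen. Transcript signals do not measure the proteins these ligases act on.

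The related lists moved with the scale as the members did. After loess the median of the cullin activation genes was 0.15, of the adaptors of other cullins 0.027, of the ubiquitin supply -0.030, of the proteasome -0.0043, of the F-box genes outside the symbols -0.073 and of the substrates 0.050. The adaptors then held 4 higher and 2 lower genes, or 5.48% and 2.74%, and the substrates 6 and 3, or 14.3% and 7.14%, beside 6.03% and 7.29% of all genes. Cullin activation had 0 called in either direction.

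**Figure D4:**
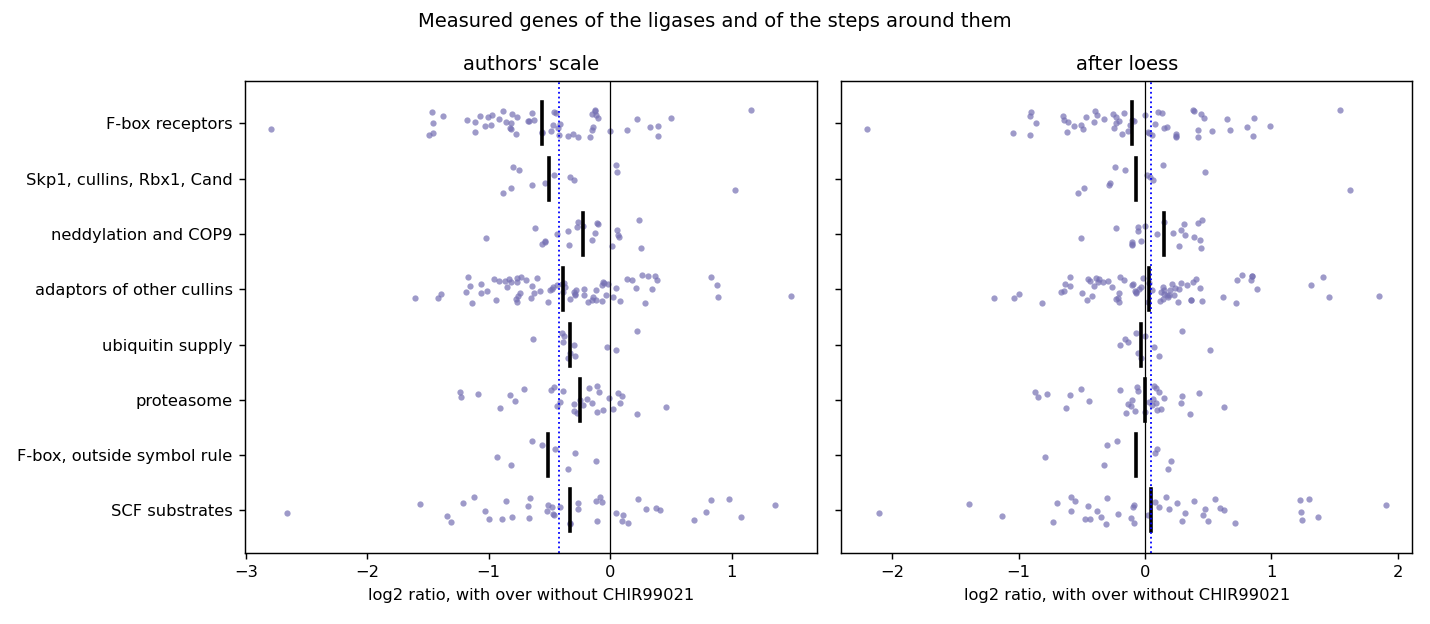
Log2 ratio, with over without CHIR99021, of each measured gene (points) of the F-box receptors, the ligase core and 6 lists of related genes, on the authors' scale (left) and after loess (right); black bars, medians; dotted line, the median of all measured genes (-0.42 and 0.044). The F-box receptors have medians of -0.56 and -0.11, the former set by the floor of Fbxl21 (-0.47 over those above both floors), and Skp1, the cullins, Rbx1 and the Cand genes -0.50 and -0.071.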

How the data were processed

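Gene expression was measured on 2 arrays, 1 per culture condition. The authors deposited linear intensities made with MAS5, as the submitters' processing notes name it. Its scaling target was not given in the sources used here. The RNA input was 100 ng, and labelling from the 3' end, per the labels, makes the signal depend on intact transcripts. MAS5 subtracts mismatch signal, so dim values scatter. Of 45101 probe sets, 34945 named 1 gene in the platform annotation, and the symbols of all 80 members matched RefSeq by Entrez identifier. Probe sets naming several genes were not used for the comparisons.

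Floors, ratios and calls were computed with numpy 2.4.6, statsmodels 0.14.6 and pandas 2.3.3 under Python 3.11.15, and tested on simulated data. The alternatives were median centring, quantile normalization, loess (span 0.4), 9 hybridization controls, other floors, an offset of 16, other probe set rules and thresholds of 1.5 and 3-fold. The number of arrays limits the precision. Members, lists, motifs and naming rule were chosen with earlier results of these data known. Named genes are all members past 2-fold, the highest, lowest and brightest of each role, a fixed list of 21 receptors and core genes with a probe set, and up to 4 genes of each related list with the largest change. The other Fbxo genes, Fbxw2 and the genes of the closing section were named after their values were seen.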

Additional observations from a re-analysis of the deposited data

How the results depend on the processing

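No call among the 14 members reversed under the alternatives run. The scalings could not reverse one, since each moved the ratios of these members by less than 2-fold. Of the 14, loess kept 4, median centring 3, quantile normalization 3 and hybridization controls 9. Fbxo15 kept its call under all 10 alternatives, and Skp2 under 9, its log2 ratio being 0.41 as the median over its probe sets. Cand2 fell to 0.22 in that setting. The count of higher members, 2 on the authors' scale, was 5 after median centring, 4 without a floor, 1 at 2 times the floor, 1 with an offset of 16, 0 with the median over probe sets and 0 at 3-fold. In that order the shares of all genes higher were 8.59%, 6.67%, 1.75%, 1.12%, 1.46% and 0.627%. The count of lower members, 12 on the authors' scale, was 1 after median centring, 1 after quantile normalization, 2 after loess, 7 on the hybridization controls, 32 at 1.5-fold and 1 at 3-fold. The shares of all genes lower were 5.91%, 6.43%, 7.29%, 13.7%, 38.7% and 6.29%. The median log2 ratio of the measured members, -0.56, was 0.064 after median centring, a scaling that moved all genes from -0.42 to 0.20, and between -0.56 and -0.012 under the others. A move was judged against the SD of 0.56 between probe sets of a gene, for want of replicates. The cause of these moves was not tested beyond the construction of each scaling. No paired analysis was possible because each condition has 1 array. Depth cannot be given for arrays, and the 13 members below both floors have no ratio.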

Other observations

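Mouse carries a block of F-box genes on chromosome 9 in which 15 Fbxw genes follow each other with no other protein-coding gene between them in the RefSeq annotation. Of these, 9 had a probe set naming 1 gene, and 6 of the 9 (Fbxw13, Fbxw14, Fbxw18, Fbxw21, Fbxw24 and Fbxw27) were below the floor on both arrays. Fbxw22 had 62.1 without and 45.5 with CHIR99021 and Fbxw19 had 32.7 and 29.5. Fbxw16 was above the floor only without CHIR99021, at 24.9.

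Probe sets that name several genes were left out of the comparisons. For Rbx1 they name its pseudogene copy as well. They had 3136 without and 2944 with CHIR99021, 2792 and 2568, 862 and 576, and 81.0 and 109, with log2 ratios of -0.09, -0.12, -0.58 and 0.43. A last one was below both floors. The set naming only Rbx1 had a log2 ratio of -0.80.

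The other members below both floors were Fbxl8, Fbxl13, Fbxo2, Fbxo24, Fbxo41, Fbxo43 and Fbxw10. Fbxo2 is a glycoprotein receptor of neurons, and Fbxo43, also called Emi2, holds eggs in meiotic arrest. Fbxl2 and Fbxl21 lay just above the floor with CHIR99021, both at 13.0, and below it without, so their ratios were set by the floor and have no direction of their own.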
